A study of Mus musculus with 8 samples.

Results

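Genes of mitosis and chromosome segregation were followed after knockdown of Uhrf1 in cultured vascular smooth muscle cells (VSMC), the contractile cells of the artery wall, taken as primary cells from mice. The set was chosen by name from the known machinery of cell division, with earlier results of these data known, and holds 45 genes. Of these, 38 had a probe named by the platform annotation, and 25 had a probe detected well enough to be tested, among 7502 genes tested in all. The cells were infected with lentivirus carrying a short hairpin RNA against Uhrf1 (shUHRF1) or a scrambled hairpin (shSCR). Both groups came from male C57Bl6/J mice of 8 weeks and shared the lentiviral infection and the 2 days of puromycin selection, and RNA was taken at 5 days. Each group holds 2 RNA samples, and each RNA sample was hybridised to 2 Illumina bead arrays, 8 arrays in all. The labels do not say whether RNA samples are separate cultures or animals, nor whether 1 hairpin or several were used against Uhrf1. The p-values therefore reflect the spread among these 4 samples alone, and that spread may be technical.

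Mitosis is driven by the kinase Cdk1 with its B-type cyclins, which is switched on by Cdc25 phosphatases and assisted by Plk1 and the Aurora kinases. Condensin folds the chromosomes, kinetochores attach them to spindle microtubules moved by kinesins, and the spindle checkpoint holds back the anaphase-promoting complex until every chromosome is attached. Its activator Cdc20 then releases the sister chromatids, and the spindle midzone with anillin and the contractile ring divides the cell. Most of these genes are transcribed late in the cell cycle, through a cell cycle homology region (CHR) in their promoters that is bound by the MuvB complex, with Foxm1 and B-Myb as activators and the DREAM complex as repressor. In the artery wall the products mark smooth muscle cells that have left quiescence and divide.

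The promoters are shown because every tested member had a lower group mean in shUHRF1 than in shSCR cells. A further reason is that CHR and CCAAT elements, the latter bound by NF-Y, are the elements known to time these genes. RefSeq windows of 250 bases before and 50 bases after the transcript start (GRCm38.p6) were matched by symbol for 37 of the 45 members. The CHR core TTTGAA, searched on both strands, occurred in 26 of these 37 windows, or 70.3%, against 18.1% of the windows of all 27025 genes with a promoter entry and 11.6% of those of tested genes. CCAAT, also on both strands, occurred in 30 windows, or 81.1%, against 37.9% of all windows and 39.7% of those of tested genes. At least 2 copies of CCAAT stood in 54.1% of the member windows and 12.2% of all windows. Both motifs were present in 62.2% of member windows and 7.12% of all windows. The related form TTCGAA was found in 4 member windows, those of Bub1, Bub1b, Cdc25b and Top2a. Copies of CCAAT on opposite strands may share bases, as they do at 1 place in Ube2c, and a match describes letters and not a bound site.

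The 120 bases before the transcript start are printed for the tested members whose stretch holds a whole TTTGAA on either strand, followed by Diaph3 and Birc5, where these letters are not in the stretch. All are written 5′ to 3′ along the gene's strand in GRCm38.p6. Capitals mark TTTGAA or its reverse complement TTCAAA, and CCAAT or its reverse complement ATTGG.
Cdk1, chr10:69352913-69353032, minus strand: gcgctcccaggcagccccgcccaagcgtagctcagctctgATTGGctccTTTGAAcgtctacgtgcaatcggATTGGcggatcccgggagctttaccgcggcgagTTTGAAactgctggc
Cdc20, chr4:118437344-118437463, minus strand: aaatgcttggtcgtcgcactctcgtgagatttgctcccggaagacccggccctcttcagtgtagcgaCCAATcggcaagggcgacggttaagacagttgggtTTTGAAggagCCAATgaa
Ube2c, chr2:164769809-164769928, plus strand: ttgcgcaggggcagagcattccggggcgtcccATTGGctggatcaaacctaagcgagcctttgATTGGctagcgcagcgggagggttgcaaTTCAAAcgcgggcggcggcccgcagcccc
Kif11, chr19:37376262-37376381, plus strand: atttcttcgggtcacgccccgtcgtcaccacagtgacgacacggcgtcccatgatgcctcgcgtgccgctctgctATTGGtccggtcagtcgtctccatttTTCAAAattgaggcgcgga
Kif2c, chr4:117178773-117178892, minus strand: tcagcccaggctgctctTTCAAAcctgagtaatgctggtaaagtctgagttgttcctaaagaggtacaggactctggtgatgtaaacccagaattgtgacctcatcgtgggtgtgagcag
Top2a, chr11:99024190-99024309, minus strand: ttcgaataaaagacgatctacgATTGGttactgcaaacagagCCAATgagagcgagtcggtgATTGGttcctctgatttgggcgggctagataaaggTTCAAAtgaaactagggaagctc
Diaph3, chr14:87141225-87141344, minus strand: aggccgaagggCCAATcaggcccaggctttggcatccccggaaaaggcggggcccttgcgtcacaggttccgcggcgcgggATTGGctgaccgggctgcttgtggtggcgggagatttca
Birc5, chr11:117849117-117849236, plus strand: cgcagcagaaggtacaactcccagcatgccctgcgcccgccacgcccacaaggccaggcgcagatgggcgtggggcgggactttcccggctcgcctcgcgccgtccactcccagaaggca
The sequences differ in how the elements are placed. Counted from the transcript start, the CHR core begins at -15 in Cdk1, -18 in Cdc20, -19 in Kif11, -23 in Top2a and -29 in Ube2c, with at least 1 copy of CCAAT further upstream in each. Cdk1 has a further CHR core at -71. In Kif2c the core lies at -103, and its window holds no CCAAT. Diaph3 has CCAAT alone, and Birc5 neither.

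**Figure D1:**
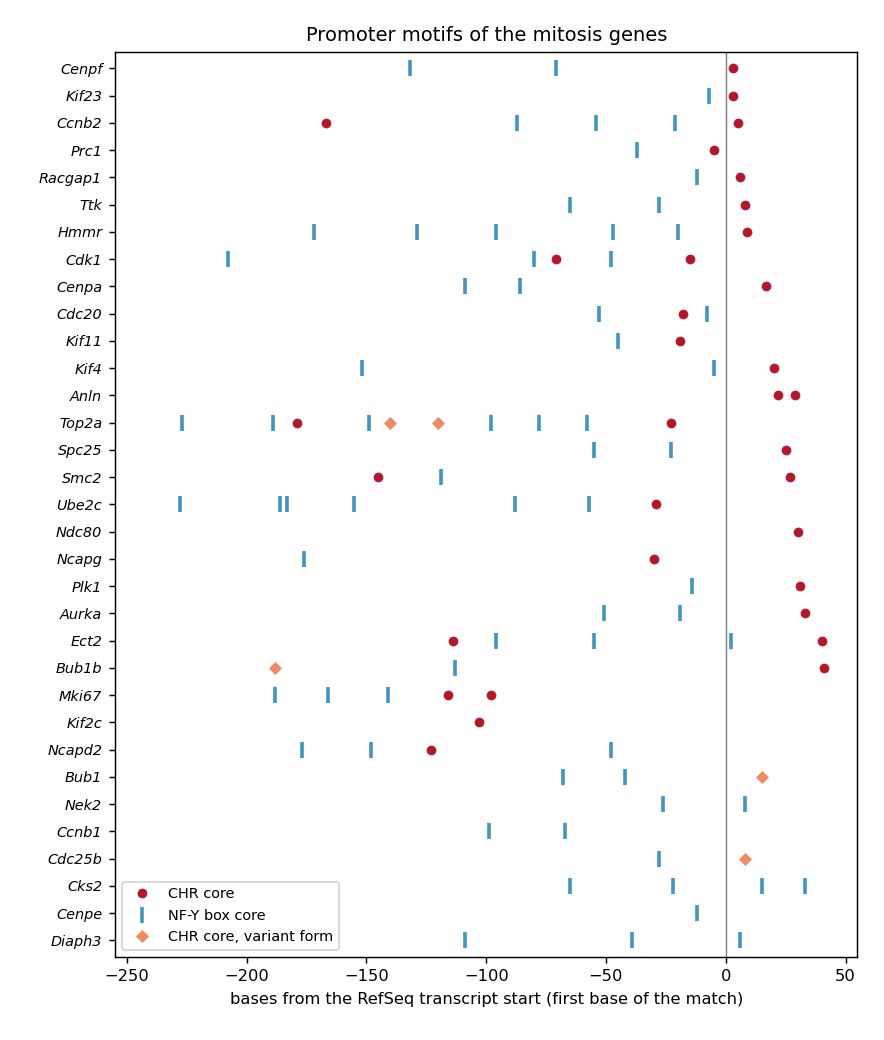
Positions of promoter motifs in the mitosis genes with at least 1 match (33 of 37), in bases from the RefSeq transcript start on the x axis and with 1 gene per line. Red circles are the CHR core, orange diamonds its variant form and blue bars the core of the NF-Y box. In 23 genes a CHR core lies between 60 bases before and 50 bases after the start, and blue bars lie mostly upstream of it.

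Among the 17 tested members with TTTGAA in the window, the median log2 difference between shUHRF1 and shSCR was -0.68. Among the 4 tested members with a promoter entry and no such match it was -0.79, and all of these members were lower in shUHRF1 cells.

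Expression was read as normalized log2 signal per probe, with each gene represented by its brightest tested probe, and differences are shUHRF1 minus shSCR over 2 RNA samples per group, with the moderated standard error (SE). A gene was tested if its probe was detected on all 4 arrays of at least 1 group. All 25 tested members were lower in shUHRF1 cells, where 51.6% of all tested genes were lower. Their median log2 difference was -0.72, against -0.01 over all tested genes, and single members lay between -1.14 for Depdc1b and -0.39 for Anln. A log2 difference of -0.5 or beyond was reached by 22 of the 25 members and by 7.16% of all genes. By limma with Benjamini-Hochberg adjustment 0 members passed an adjusted p of 0.05, as did 0% of all genes, and the members' adjusted p-values ran from 0.287 to 0.547. At an unadjusted p under 0.05, 10 members were lower, or 40% of those tested, against 6.64% of all genes, and 0 were higher, against 7.9% of all genes. With all 8 arrays fitted and RNA sample as a random block, 0 members passed the adjusted threshold, where 0.0133% of all genes passed as lower, and Diaph3 had the lowest adjusted p among the members, at 0.0902 by limma. The random block fit used a single correlation between duplicates of 0.19 for all genes, which counts the arrays as nearly independent. The members' shUHRF1 arrays grouped by RNA sample, so the members' p-values in it may be too low. In 12 members all 4 shUHRF1 arrays lay below all 4 shSCR arrays, which held for 8.46% of all genes, and in 17 members both shUHRF1 RNA samples lay below both shSCR samples, against 26.9%. With 2 samples per group, an exact two-sided permutation test of any single gene cannot give a p under 0.333. Of the tested members, 24 were detected on all 8 arrays, and Ube2c was not detected on 1 shUHRF1 array and so passed through the shSCR group. In RNA from whole cultures, fewer dividing cells and less RNA per dividing cell cannot be told apart.

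**Figure D2:**
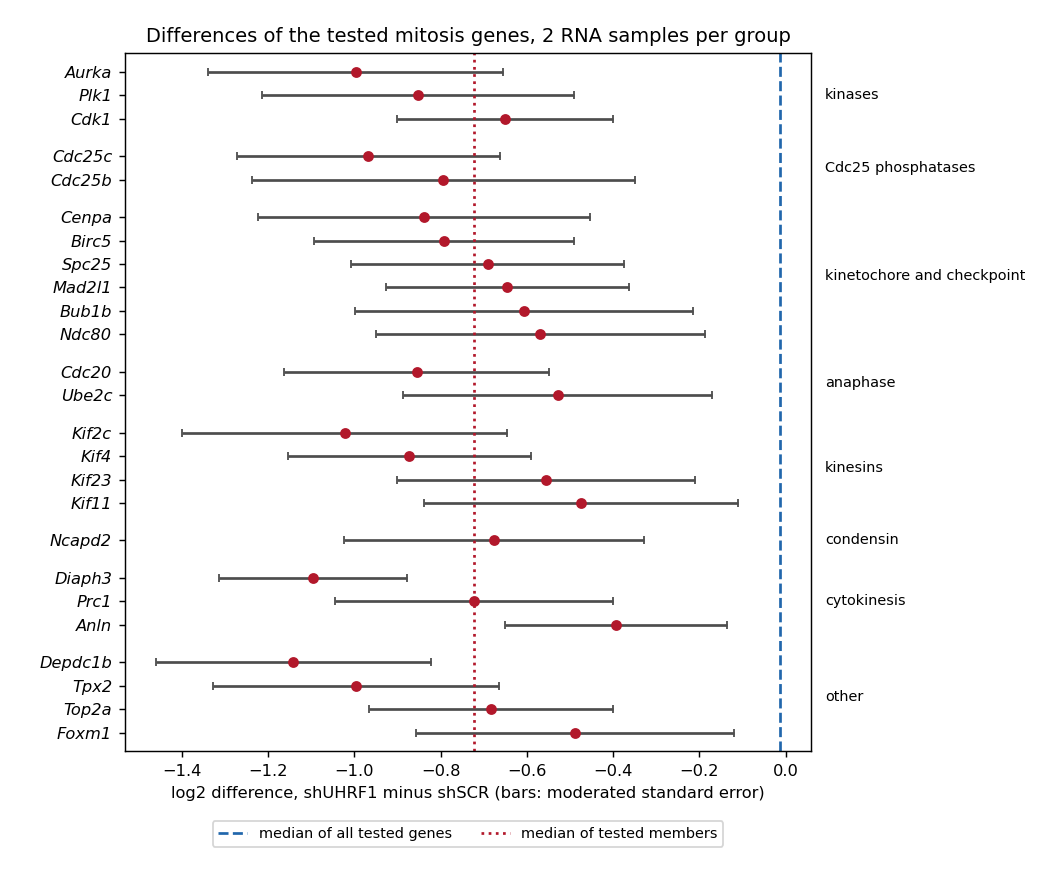
Log2 difference, shUHRF1 minus shSCR, of the 25 tested mitosis genes on the x axis, with 1 gene per line grouped by role. Points are fitted differences over 2 RNA samples per group and bars are the moderated standard error. All points lie left of the median of all tested genes (-0.01), and the members' own median is -0.72.

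Uhrf1, the targeted gene and a reader of hemimethylated DNA needed for maintenance methylation, had a log2 signal of 9.06 in shUHRF1 sample 1 and of 8.48 in shUHRF1 sample 2, with 11.52 in shSCR sample 1 and 11.54 in shSCR sample 2. Its log2 difference was -2.75 (SE 0.23, adjusted p = 0.167 by limma). The share of probes detected lay between 45.1% and 48.2% on every array, and raw medians lay between 103.4 and 123.3. The smooth muscle markers Acta2, Tagln, Smtn, Cald1, Tpm1 and Tpm2 were tested, while Myh11, Cnn1 and Myocd were not detected on any array. Of the 6 tested, 5 had higher means in shUHRF1 cells, with a median difference of 0.33, led by Tagln at 1.27 (SE 0.20) and Acta2 at 0.57 (SE 0.30). Tagln was dim in shSCR cells, with a mean of 5.09, and Acta2 differed by 0.89 between the shSCR samples. Both shUHRF1 samples lay above both shSCR samples in 3 of the 6, against 1800 of all 7502 tested genes. The summed raw signal of the smooth muscle list was 25269 to 43242 on shUHRF1 arrays, against 18518 to 31574 on shSCR arrays. Of 10 endothelial markers 4 were not detected on any array, among them Cdh5 and Vwf, while Egfl7 differed by -0.52 (SE 0.17), Kdr by -0.41 (SE 0.19) and Esam by 0.34 (SE 0.28). Of 10 leukocyte markers 5 were not detected on any array, among them Ptprc. Of the 2 tested, Cd14 averaged a log2 signal of 8.48 in shUHRF1 and 8.74 in shSCR cells. For Aif1 the averages were 4.92 and 4.89. Of 10 named fibroblast markers only Dpep1 was not detected on any array, and 6 of 6 tested had higher means in shUHRF1 cells. The median difference was 0.29 for shUHRF1 sample 1, where 2 of the 6 were lower, and 1.00 for shUHRF1 sample 2. Both shUHRF1 samples lay above both shSCR samples in 3 of these 6. The shSCR samples themselves differed by -1.09 to 1.23 in these genes, as sample 2 minus sample 1. The summed raw signal of the fibroblast list was 3853 to 5641 on shUHRF1 arrays against 3388 to 4105 on shSCR arrays, and the part of these marker genes in the mitosis result was not tested.

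The mitotic kinases tested were Cdk1, Aurka and Plk1, and all were lower in shUHRF1 cells, with a median of -0.85. Aurka, the kinase of centrosome maturation and spindle assembly, had a log2 signal of 9.55 and 8.82 on the arrays of shUHRF1 sample 1 and 10.07 and 10.36 on those of shUHRF1 sample 2, against 10.65 and 10.49 in shSCR sample 1 and 10.83 and 10.83 in shSCR sample 2. Every shUHRF1 array was below every shSCR array, and the difference was -0.997 (SE 0.34), or 2.00-fold lower, with an adjusted p of 0.306 by limma. Plk1, which promotes mitotic entry and kinetochore attachment, had 10.08 and 9.45 in shUHRF1 sample 1 with 10.87 and 10.94 in shUHRF1 sample 2, against 11.14, 11.16, 11.20 and 11.25 on the arrays of shSCR. The arrays again did not overlap between the groups, and the difference was -0.85 (SE 0.36). Cdk1, the kinase that starts mitosis, had 10.59 and 10.51 in shUHRF1 sample 1 with 10.94 and 11.33 in shUHRF1 sample 2, against 11.29, 11.34, 11.67 and 11.69 on the arrays of shSCR. Here the second array of shUHRF1 sample 2 reached the level of shSCR sample 1, so the groups overlapped, and the difference was -0.65 (SE 0.25). The spindle checkpoint kinase Bub1 and the centrosome kinase Nek2 were not detected on any array. Ttk, which starts the checkpoint signal, was detected only on the 2 arrays of shSCR sample 2, and Aurkb had no named probe.

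Of the regulators of Cdk1, the phosphatases Cdc25b and Cdc25c were tested, and both were lower. Cdc25c, which removes the inhibitory phosphates from Cdk1 at mitotic entry, had 7.19 and 5.97 on the arrays of shUHRF1 sample 1 and 7.58 and 7.32 on those of shUHRF1 sample 2, against 8.08 and 8.18 in shSCR sample 1 and 7.82 and 7.84 in shSCR sample 2. All shUHRF1 arrays were below all shSCR arrays, and the difference was -0.97 (SE 0.31), with a further tested probe at -0.99. Cdc25b, thought to act earlier on the centrosomal pool of Cdk1, had 5.92 and 5.66 in shUHRF1 sample 1 with 7.40 and 6.98 in shUHRF1 sample 2, against 7.68, 7.31, 7.00 and 7.15 on the arrays of shSCR. Only sample 1 lay clearly below the controls, since sample 2 overlapped them, and the difference was -0.79 (SE 0.44). The cyclins, the activating partners of Cdk1, were not tested. The probe of Ccnb2 was not detected on any array, that of Ccna2 was detected on both arrays of shSCR sample 2 and on 1 shUHRF1 array, and Ccnb1 had no named probe. Cks2, a small subunit that binds Cdk1, was detected on the same 3 arrays as Ccna2.

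All 6 tested kinetochore, centromere and checkpoint genes were lower, with a median of -0.67 and a range from -0.84 to -0.57. Cenpa, the histone variant that marks centromeres, had 11.65 and 10.72 on the arrays of shUHRF1 sample 1 and 12.44 and 12.35 on those of shUHRF1 sample 2, against 12.50 and 12.52 in shSCR sample 1 and 12.82 and 12.67 in shSCR sample 2. The shUHRF1 arrays lay below all shSCR arrays, and the difference was -0.84 (SE 0.38). Birc5, or survivin, a subunit of the chromosomal passenger complex, had 10.86 and 10.37 in shUHRF1 sample 1 with 11.44 and 11.55 in shUHRF1 sample 2, against 11.70, 11.77, 11.99 and 11.93 on the arrays of shSCR. Its groups did not overlap either, and the difference was -0.79 (SE 0.30), with its other tested probes at -0.78 and -0.73. Ndc80, the microtubule-binding kinetochore protein, had 7.84 and 7.20 in shUHRF1 sample 1 with 8.73 and 8.73 in shUHRF1 sample 2, against 8.58, 8.98, 8.66 and 8.57 on the arrays of shSCR. In this gene sample 1 was low and sample 2 lay within the controls, and the difference was -0.57 (SE 0.38). Bub1b, which encodes the checkpoint protein BubR1, was also low in sample 1, at -1.24 relative to the shSCR mean, beside 0.02 in sample 2. Its sample 2 arrays, at 8.30 and 8.58, lay on either side of the shSCR arrays. Spc25, a subunit of the Ndc80 complex, differed by -0.69, and Mad2l1, the checkpoint inhibitor of Cdc20, by -0.65. Nuf2, the partner of Ndc80, was not detected on any array, and Cenpf had no named probe.

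For the exit from metaphase, Cdc20 and Ube2c were tested. Cdc20, the activator of the anaphase-promoting complex, had 11.07 and 9.74 on the arrays of shUHRF1 sample 1 and 11.37 and 11.29 on those of shUHRF1 sample 2, against 11.78 and 11.66 in shSCR sample 1 and 11.81 and 11.64 in shSCR sample 2. The shUHRF1 arrays were all below the shSCR arrays, and the difference was -0.86 (SE 0.31), or 1.81-fold lower. Its 4 tested probes gave differences from -1.02 to -0.86. Ube2c, the ubiquitin-conjugating enzyme of that complex, was dim, with 5.27 and 4.58 in shUHRF1 sample 1 with 5.83 and 5.58 in shUHRF1 sample 2, against 5.21, 5.66, 6.13 and 6.38 on the arrays of shSCR. Its groups overlapped, the controls differed by 0.82 between sample 2 and sample 1, and the difference was -0.53 (SE 0.36). Pttg1, or securin, the inhibitor of separase, was detected on the 2 arrays of shSCR sample 2 and on no shUHRF1 array. Its log2 signal averaged 4.77 in shUHRF1 sample 1 and 4.59 in shUHRF1 sample 2, against 4.605 in shSCR sample 1 and 5.17 in shSCR sample 2. Only shSCR sample 2 stood apart, the groups overlapped, and the gene was not tested.

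Among the kinesins, 4 of 6 were tested and all were lower, with a median of -0.71. Kif2c, which depolymerises microtubules at centromeres to correct attachments, had 8.58 and 7.53 on the arrays of shUHRF1 sample 1 and 9.09 and 9.38 on those of shUHRF1 sample 2, against 9.71 and 9.38 in shSCR sample 1 and 9.86 and 9.72 in shSCR sample 2. All shUHRF1 arrays were below all shSCR arrays, the highest of them only just, and the difference was -1.02 (SE 0.38), or 2.03-fold lower. Kif4, a chromosome-bound kinesin of the midzone, had 8.34 and 7.82 in shUHRF1 sample 1 with 8.81 and 8.98 in shUHRF1 sample 2, against 9.26, 9.40, 9.46 and 9.31 on the arrays of shSCR. Its groups did not overlap, and the difference was -0.87 (SE 0.28), with the other tested probes at -0.95 and -0.89. Kif11, the motor that separates the spindle poles, had 7.26 and 6.98 in shUHRF1 sample 1 with 8.18 and 8.37 in shUHRF1 sample 2, against 8.23, 8.17, 8.22 and 8.07 on the arrays of shSCR. Sample 2 lay within the control range or above it while sample 1 was lower, and the difference was -0.47 (SE 0.36). Kif23, a midzone motor, was also low in sample 1, at -1.10, and near the shSCR mean in sample 2, at -0.02. Its sample 2 arrays, at 8.96 and 9.22, lay on either side of the shSCR arrays. Cenpe, the kinetochore kinesin, was not detected on any array. Kif20a, a cytokinesis motor, was not tested, being detected on 3 shUHRF1 arrays and 1 shSCR array. Its log2 signal averaged 4.70 and 5.01 in shUHRF1 samples 1 and 2, against 4.77 and 4.66 in shSCR samples 1 and 2. With no filter on dim probes 37 of 38 members were lower, and Kif20a was the exception.

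Condensin was represented by Ncapd2 alone, a regulatory subunit of condensin I. It had 8.30 and 7.75 on the arrays of shUHRF1 sample 1 and 8.97 and 9.22 on those of shUHRF1 sample 2, against 9.30 and 9.41 in shSCR sample 1 and 9.14 and 9.10 in shSCR sample 2. Sample 1 was low on both arrays, sample 2 overlapped the controls, and the difference was -0.68 (SE 0.35). The probes did not agree in size, since the other tested probes of Ncapd2, which were dimmer, gave -0.19 and -0.17. The condensin ATPase Smc2 was not detected on any array, and Smc4 and Ncapg had no named probe. Top2a, the topoisomerase that untangles sister chromatids alongside condensin, was lower on every shUHRF1 array and differed by -0.68 (SE 0.28).

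Cytokinesis genes spanned nearly the whole range of the members, with a median of -0.72 over 3 tested genes. Diaph3, a formin that nucleates actin filaments, had 8.09 and 7.99 on the arrays of shUHRF1 sample 1 and 8.10 and 8.93 on those of shUHRF1 sample 2, against 9.38 and 9.60 in shSCR sample 1 and 9.19 and 9.33 in shSCR sample 2. Every shUHRF1 array was below every shSCR array. The difference was -1.10 (SE 0.22), or 2.14-fold lower, with an adjusted p of 0.287 by limma. It was also the member with the largest difference in sample 2, at -0.86, beside -1.33 in sample 1. Prc1, which bundles midzone microtubules, had 11.27 and 10.66 in shUHRF1 sample 1 with 11.88 and 12.02 in shUHRF1 sample 2, against 12.24, 12.17, 12.19 and 12.12 on the arrays of shSCR. Its groups did not overlap, and the difference was -0.72 (SE 0.32). Anln, the scaffold of the contractile ring, had 11.82 and 10.88 in shUHRF1 sample 1 with 12.01 and 11.97 in shUHRF1 sample 2, against 12.24, 12.20, 11.84 and 11.97 on the arrays of shSCR. The groups overlapped, and the difference was -0.39 (SE 0.26), the smallest among the members in this fit, although a dimmer probe of Anln gave -0.82. Ect2, which is needed to form the contractile ring, was not detected on any array, and Racgap1 had no named probe.

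Of the remaining members, Depdc1b, a DEP-domain protein, had 6.28 and 5.54 on the arrays of shUHRF1 sample 1 and 6.63 and 7.13 on those of shUHRF1 sample 2, against 7.52 and 7.60 in shSCR sample 1 and 7.67 and 7.37 in shSCR sample 2. All shUHRF1 arrays were lower, and the difference of -1.14 (SE 0.32), or 2.21-fold lower, was the largest of the members in this fit. Its size depended on the handling of background, since it was -0.63 with no background correction, where Aurka differed most at -0.91, and -0.33 with the authors' processed values, where Cenpa differed most at -0.84. On the first arrays alone Diaph3, at -1.19, exceeded Depdc1b, at -1.14. Tpx2, which activates Aurora A on spindle microtubules, had 7.22 and 6.97 in shUHRF1 sample 1 with 7.69 and 8.54 in shUHRF1 sample 2, against 8.51, 8.53, 8.43 and 8.93 on the arrays of shSCR. The second array of shUHRF1 sample 2 overlapped the controls, and the difference was -0.996 (SE 0.33). Foxm1, the transcription factor that activates many of the other members, had 7.50 and 7.28 in shUHRF1 sample 1 with 8.42 and 8.71 in shUHRF1 sample 2, against 8.30, 8.62, 8.54 and 8.41 on the arrays of shSCR. It was lower in sample 1 and within the control range or above it in sample 2, and the difference was -0.49 (SE 0.37), with a further probe at -0.58. Hmmr, a spindle protein, was detected on 1 shSCR array by 1 of its probes, and the proliferation antigen gene Mki67 had no named probe.

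**Figure D3:**
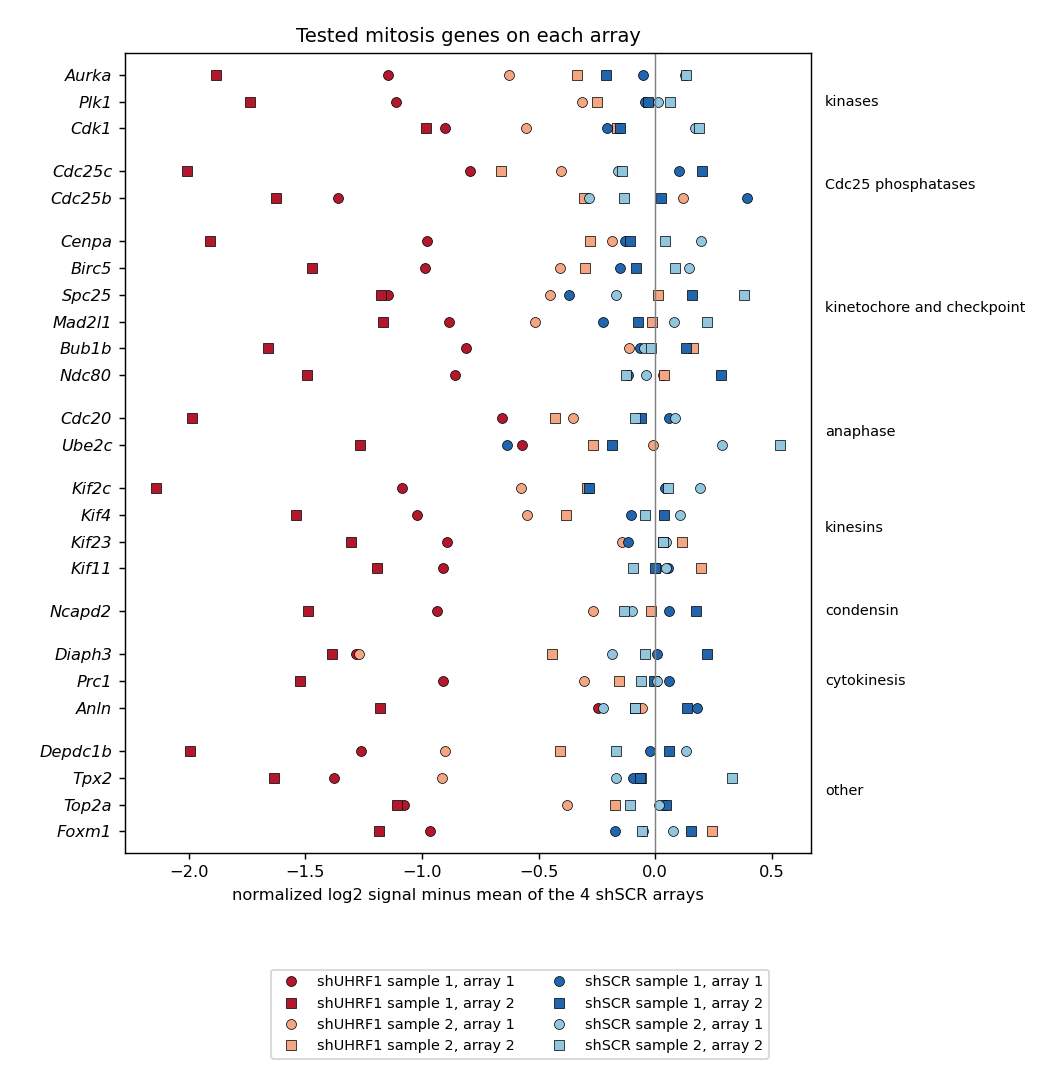
Normalized log2 signal of the 25 tested mitosis genes on each of the 8 arrays, as the distance from the mean of the 4 shSCR arrays on the x axis, with 1 gene per line grouped by role. Red and orange are shUHRF1 samples 1 and 2, dark and light blue shSCR samples 1 and 2, circles the first and squares the second array. Red squares lie furthest left in every gene, with an array median of -1.49, and the shSCR arrays lie around 0.

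The medians of the role groups were -0.85 for kinases, -0.88 for Cdc25 phosphatases, -0.67 for kinetochore genes, -0.69 for anaphase genes, -0.71 for kinesins, -0.68 for condensin -0.72 for cytokinesis genes and -0.84 for the remaining members. These rest on 1 to 6 tested genes each. Their order and spacing changed with the processing. With the authors' processed values the medians ran from -0.75 for kinases and -0.67 for cytokinesis genes to -0.40 for condensin and -0.28 for Cdc25 phosphatases. With the mean of all tested probes of a gene, condensin stood at -0.35 and the Cdc25 phosphatases at -0.89. Differences among role groups were not tested.

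The lower values of the mitosis genes came mostly from shUHRF1 sample 1. Relative to the mean of the shSCR samples, the median was -1.23 in shUHRF1 sample 1, where all 25 members were lower, and -0.27 in shUHRF1 sample 2, where 21 were lower. Over all tested genes 50% and 52.6% were lower in these samples. Both arrays of sample 1 lay below all 4 shSCR arrays in 24 members, with Ube2c the exception, against 20.9% of all genes. For sample 2 this held for 12 members, against 15.4% of all genes. Both comparisons use the same shSCR samples. Set against sample 2 directly, sample 1 was lower in 25 of 25 members, against 48.9% of all genes. Here both arrays of sample 1 were lower in 25 of 25 members, against 20% of all genes, and the median difference between sample 1 and sample 2 was -0.99. The sample with the smaller difference in mitosis genes, sample 2, had the lower mean Uhrf1 signal. Its arrays had 8.39 and 8.58, against 9.40 and 8.73 on those of sample 1. The duplicates of sample 1 were thus at least as far apart as the means of the samples. Within sample 1 the second array was lower in Uhrf1 and also in the mitosis genes. A relation between the Uhrf1 signal and the mitosis genes was not tested. The members that stood at or above the shSCR mean in sample 2 were Bub1b at 0.02, Ndc80 at 0.04, Kif11 at 0.10 and Foxm1 at 0.10. The largest remaining differences there were those of Diaph3 at -0.86, Depdc1b at -0.66, Cdc25c at -0.53 and Tpx2 at -0.49. Without shUHRF1 sample 1, limma gave a median of -0.27, and without shUHRF1 sample 2 the median was -1.23. A fit with 1 shUHRF1 sample assumes that it varies like the shSCR samples. Counts at an unadjusted p are therefore not given for these fits.

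**Figure D4:**
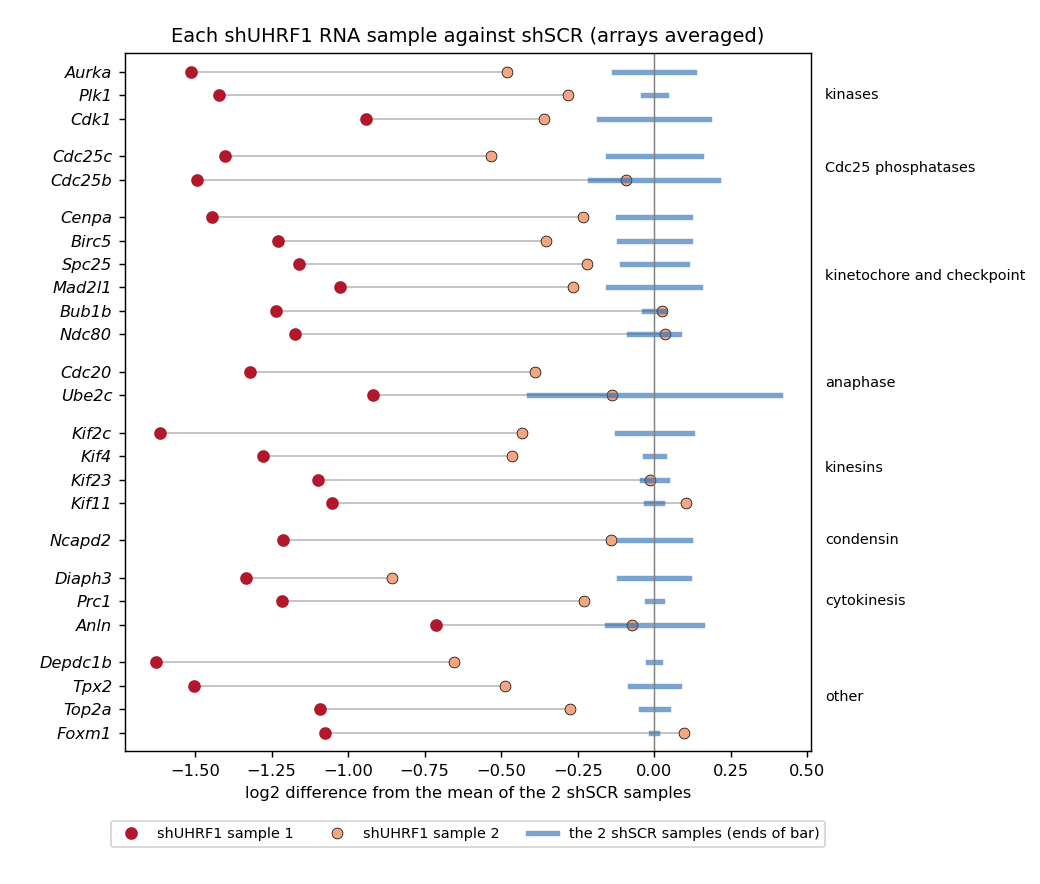
Log2 difference of each shUHRF1 RNA sample from the mean of the 2 shSCR samples on the x axis for the 25 tested mitosis genes, with 1 gene per line. Red points are sample 1, orange points sample 2, and the ends of each blue bar are the 2 shSCR samples. Red points lie left of orange points in all 25 genes, with medians of -1.23 and -0.27.

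The controls were close to each other by comparison. The median member was 0.02 higher in shSCR sample 2 than in sample 1, with a range from -0.42 in Cdc25b to 0.82 in Ube2c. The arrays of an RNA sample did not always agree. In shUHRF1 sample 1 the second array was below the first in all 25 members, with a median of -0.56 and a lowest value of -1.33 in Cdc20, while over all genes the median was -0.02 and 52.3% were lower. In 14 members this gap between arrays reached 0.5, against 13.9% of all genes. The members' medians of second minus first array were 0.20 in shUHRF1 sample 2, 0.07 in shSCR sample 1 and -0.01 in shSCR sample 2. Over all genes the duplicates of the shUHRF1 samples were also further apart, with an SD of 0.49 and 0.46 in samples 1 and 2, against 0.25 and 0.27 in shSCR samples 1 and 2. On the first array alone, the median of shUHRF1 sample 1 was -0.97 relative to the shSCR arrays, and on the second it was -1.49. A further setting, chosen after seeing these values, took sample 1 from its first array alone. The members' median over both shUHRF1 samples was then -0.63, against -0.008 over all genes. In it 25 of 25 members were lower, and 10 of them had an unadjusted p under 0.05 by limma. The shares of all genes for these counts were not taken in this setting.

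**Figure D5:**
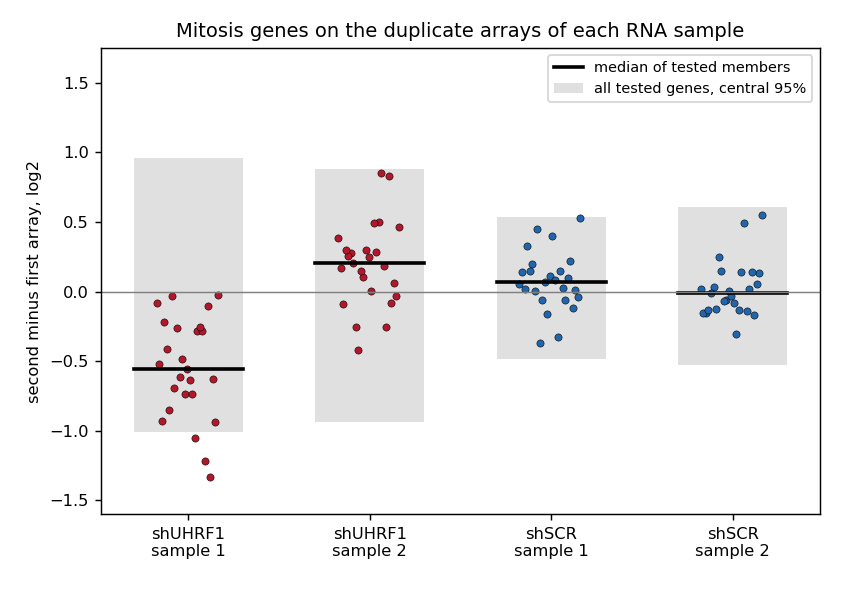
Second minus first array of each RNA sample, in log2 units on the y axis, for the 25 tested mitosis genes (points), with their median as a black line and the central 95% of all tested genes as a grey bar. In shUHRF1 sample 1 all points lie below 0, with a median of -0.56, and in the other samples the medians are 0.20, 0.07 and -0.01.

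Other genes of mitosis that are also transcribed late in the cell cycle were read from a further list, likewise chosen with earlier results known. Of 68 listed, 47 were tested and 46 were lower, where 51.6% of all tested genes were lower, with a median of -0.72. Of the lower genes 13 had an unadjusted p under 0.05, which 6.64% of all genes reached as lower. Cenpn, a centromere protein, differed most at -0.96 (SE 0.37), and Psrc1, a spindle protein, was the 1 gene higher, at 0.19 (SE 0.17). Most core subunits of the anaphase-promoting complex are made throughout the cycle. The list of this core, which also holds the activator gene Fzr1, had a median of -0.13 over 10 tested genes. Of these 8 were lower, with extremes of -0.32 in Cdc27 and 0.15 in Anapc13. Genes of cohesin, which holds sister chromatids together, and of its regulators were lower in 8 of 8 tested. Their median was -0.28, and the acetyltransferase gene Esco2 differed most at -0.70 (SE 0.49). Genes of the DREAM and MuvB complexes and their partners were lower in 9 of 9 tested, with a median of -0.30, and Rbl1, which encodes the pocket protein p107, differed most at -0.54 (SE 0.30). In the last 3 lists 0 genes reached an unadjusted p under 0.05, and by limma 0 genes of any list passed the adjusted threshold. The differences between lists were not tested. In shUHRF1 samples 1 and 2 the medians were -1.13 and -0.19 for the other late mitosis genes, -0.24 and -0.06 for the complex core, and -0.27 and -0.23 for cohesin. TTTGAA occurred in 56.1% of the 57 promoter windows of the other late mitosis genes, and in 1 of 12 windows of the complex core and 1 of 7 of cohesin.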

How the data were processed

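The deposited signals are mean bead intensities per probe and array on a linear scale, not normalized between arrays, per the file headers, with a detection p-value for each. The submitters' processing notes name GenomeStudio 2011.1 and lumi without stating whether background had been subtracted. A deposited table of the authors' processed values, taken as log2 although its log base is not stated, served as an alternative. Of 25671 probes, 2 with unreadable entries were left out. Platform annotation named 23950 probes with 1 symbol and 0 with several, and 1719 had none.

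Signals were corrected with normexp (offset 16, background from detection p) and quantile-normalized (neqc, limma 3.58.1, R 4.3.3). The tested probes (10880) were those with a detection p under 0.05 on every shUHRF1 array or on every shSCR array. The arrays of an RNA sample were averaged, and groups were compared by limma without a block, adjusted by Benjamini-Hochberg over all tested probes. The number of RNA samples, 2 per group, limits the precision. The fit was tested on simulated data with independent errors and planted differences larger than that of any member. It therefore does not show whether differences of the members' size could be called. Members, roles and gene lists were chosen with earlier results of these data known. Array values are given for the tested members with the 2 largest differences and the smallest in each role group, and for all of groups with 3 or fewer. From the other lists, the gene with the largest difference in either direction is named. Smooth muscle, endothelial, leukocyte and fibroblast marker lists served as checks. Alternatives covered pairing, arrays, background, scaling, filter, probe choice and left-out samples. RNA sample 1 and sample 2 share only a number between the groups (r across genes of their deviations = -0.16).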

Additional observations from a re-analysis of the deposited data

Results flagged for a closer look

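Within the 4 arrays of a group, 3 of the 52 sets of array values of the tested members and Uhrf1 held a value whose gap to its nearest neighbour exceeded Dixon's 95% critical value as a share of the range of the group. Chance gives about 1 in 20 for 4 independent values, but these arrays are duplicates of 2 RNA samples, so that rate does not apply here. For Anln, the contractile ring scaffold, the second array of shUHRF1 sample 1 was lowest at 10.88, with the nearest shUHRF1 array at 11.82. For Diaph3, the formin, the second array of shUHRF1 sample 2 was highest at 8.93, against 8.10 on the nearest. For Kif23, the midzone motor, the first array of shSCR sample 1 was lowest at 8.99, with the nearest at 9.14.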

How the results depend on the processing

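By limma 0 members passed the adjusted threshold under any of the 17 alternatives, and all medians of the members and role groups stayed below 0. The count of members lower at an unadjusted p under 0.05, 10 as reported, was 17 with the 8 arrays and RNA sample as a random block, 3 on second arrays alone, 5 with the authors' processed values and 4 of 38 with no filter on dim probes. The random block fit counts duplicate arrays as nearly independent, so its count may be too high. With a replicate block for the RNA sample number the count was 17, and with a replicate block for the array number 16. Across all genes the RNA sample numbers deviated only weakly in opposite directions (r = -0.16). Pairing them crossed, chosen after seeing the data, gave 18. The share of all genes lower at an unadjusted p under 0.05 was taken only for the reported fit, at 6.64%. These counts therefore do not show whether a change between settings was particular to the members. Genes passing the adjusted threshold over all numbered 0 as reported, 3 with the random block and 1 with the RNA sample number block. They numbered 2 with the array number block, 1 on second arrays alone and 2 with the crossed pairing. With the authors' values the members' median was -0.46 and that of the Cdc25 phosphatases -0.28, while single members ran from -0.84 for Cenpa to -0.08 for Ube2c, with Diaph3 at -0.67, Cdc25c at -0.35 and Depdc1b at -0.33. Leaving out each RNA sample in turn, the count at an unadjusted p under 0.05 ran from 2 to 24. The value was 2 when shUHRF1 sample 1 was left out, 24 for shUHRF1 sample 2, 5 for shSCR sample 1 and 3 for shSCR sample 2. The members' median then ran from -1.23 to -0.27, that of kinases from -1.42 to -0.36, of kinetochore genes from -1.20 to -0.23 and of cytokinesis genes from -1.22 to -0.23. In all, 4 members crossed 0 when shUHRF1 sample 1 was left out, with ranges from -1.24 to 0.024 for Bub1b, -1.17 to 0.036 for Ndc80, -1.05 to 0.10 for Kif11 and -1.08 to 0.10 for Foxm1. The cause of these differences was not tested. With 2 RNA samples per group, the spread between them limits every value.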
